A study of Mus musculus with 11 samples.

Results

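Claudins are the membrane proteins that form the strands of the tight junction, the seal between neighbouring epithelial or endothelial cells. The claudin genes described here are *Cldn10*, *Cldn18*, *Cldn3*, *Cldn4*, *Cldn5* and *Cldn7*, 6 of the 23255 genes in the deposited table. They were listed by name, and the list was chosen by the low *Cldn10* values after naphthalene in these same libraries (4.13 to 5.14 normalised counts per library, against 12.03 or more in control). Its difference between naphthalene and control is therefore given as a description, without a test. Comparisons of *Cldn10* with osimertinib reuse the naphthalene values chosen as low or the control values they were set against. Those with naphthalene are given without a test too, and those with control are not independent of the choice.

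Each cell type of the lung carries its own mix of claudins, and that mix sets how tight its junctions are and which ions pass between the cells. *Cldn18* is typical of alveolar epithelium and *Cldn5* of endothelium. *Cldn3*, *Cldn4* and *Cldn7* are shared more widely among epithelia. Club cells are secretory cells of the airway lining, and they turn naphthalene into a toxic product through the cytochrome P450 encoded by *Cyp2f2*, which is why naphthalene injures them.

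Lung RNA of C57BL/6 mice was depleted of ribosomal RNA and sequenced as 11 libraries. The control group was untreated (n = 3), the naphthalene group was given naphthalene (n = 3), and the osimertinib group received naphthalene and then osimertinib, a drug that blocks EGF receptor kinase activity (n = 5). The labels give no dose, time, age, sex or batch. Nothing in them says that replicates are separate animals, so the spread behind each p-value may be technical. The osimertinib group had both agents, so, as far as the labels say, it differs from the naphthalene group by osimertinib and from the control group by both. Values are normalised read counts (CPM, counts scaled to a common library size).

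The libraries held 5045361 to 13009975 reads. The gene ENSMUSG00000119584 took 43.9 to 60.3% of the reads in all 3 naphthalene libraries and in osimertinib 2, and at most 0.0337% in the other 7. Outside that gene, those 4 high-share libraries held 2018541 to 2965328 reads and the 7 low-share libraries 8418669 to 13006929. Read share and the naphthalene group therefore cannot be told apart, and osimertinib 2 is the only high-share library of another group. On the first principal component (38.4% of the variance) osimertinib 3 lay far from the rest, with a score of -72.7. Lung markers were present in every library: the summed alveolar type 1 list ranged from 4243 to 5572 CPM, with *Ager* as its highest gene, and the endothelial list from 3386 to 4308 CPM, with *Calcrl* as its highest. Markers of tissue next to the lung were low or variable, with summed values of 16.5 to 72.8 CPM for heart muscle and 5.05 to 176 CPM for fat cells. Red cell genes summed to 376 to 10362 CPM.

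*Cldn10* (ENSMUSG00000022132, chromosome 14) makes junctions that let ions through, and it is one of the genes that set club cells apart from their ciliated neighbours. The gene has more than 1 start site, and both stretches of 250 bases before an annotated start are shown because the deposited value adds up all transcripts and does not say which start was used. The sequences are from RefSeq (GRCm38.p6), plus strand, 5′ to 3′. Capitals mark 3 short motifs on either strand. The first is CAAGTG, which on the other strand reads CACTTG and which the lung's epithelial transcription factor NKX2-1 is known to bind. The second, the CCAAT box of many promoters, reads ATTGG when it stands on the opposite strand. The third is the GC box of promoters without a TATA box, GGGCGG, whose reverse complement in these letters is CCGCCC. The upstream window lies at chr14:118787621-118787870 and the downstream one at chr14:118854700-118854949.

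Cldn10 upstream start: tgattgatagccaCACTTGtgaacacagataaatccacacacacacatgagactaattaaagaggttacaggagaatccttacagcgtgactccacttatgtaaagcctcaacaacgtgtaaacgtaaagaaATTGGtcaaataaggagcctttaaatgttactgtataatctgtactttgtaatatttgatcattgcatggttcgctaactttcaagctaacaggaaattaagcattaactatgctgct
Cldn10 downstream start: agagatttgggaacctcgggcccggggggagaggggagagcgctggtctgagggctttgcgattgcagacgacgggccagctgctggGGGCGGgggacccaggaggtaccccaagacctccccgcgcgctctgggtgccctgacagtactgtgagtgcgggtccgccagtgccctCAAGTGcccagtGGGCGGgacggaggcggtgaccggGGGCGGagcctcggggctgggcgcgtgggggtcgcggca

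The 2 windows differ in make-up: the GC content is 36% in the upstream one, with 4 CpG sites, and 72.4% in the downstream one, with 22. Of 32851 such mouse windows, 5.81% had a lower GC content than the upstream window and 93.6% had a lower content than the downstream one. The NKX2-1 motif begins 237 bases before the upstream start and 75 bases before the downstream start. The GC box stands at 163, 63 and 39 bases before the downstream start and is not in the upstream window, which has a CCAAT box at 118 bases. On either strand the NKX2-1 motif is in 11.6% of all windows, the CCAAT box in 33.8% and the GC box in 32.7%. The TATA letters TATAAA, or TTTATA as their reverse complement when they stand on the other strand, were searched too and are in 12.4% of all windows and in none of the 9 windows of these 6 genes. The NKX2-1 motif is also in 1 of the windows each of *Cldn18* and *Cldn7*, and in none of *Cldn3*, *Cldn4* or *Cldn5*. The motifs were chosen after the sequences had been seen, and a match describes letters only.

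The control libraries had 15.0, 12.8 and 12.03 CPM of *Cldn10*. The naphthalene libraries had 5.05, 5.14 and 4.13 CPM, from 16, 13 and 9 reads. The osimertinib libraries had 8.47, 4.50, 7.04, 7.52 and 6.53 CPM. Every control library was above every treated library, for naphthalene by choice of the list. Of all 16225 genes, 11.2% were lower without overlap in naphthalene minus control and 3.43% in osimertinib minus control. The share for both treated groups together was not computed. Osimertinib 2 was the only osimertinib library inside the naphthalene range. Group means were 13.3 ± 1.54 (SD, n = 3), 4.77 ± 0.560 (SD, n = 3) and 6.81 ± 1.48 CPM (SD, n = 5). In RNA from whole lung, fewer cells of a type and less RNA per cell cannot be told apart.

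**Figure D1:**
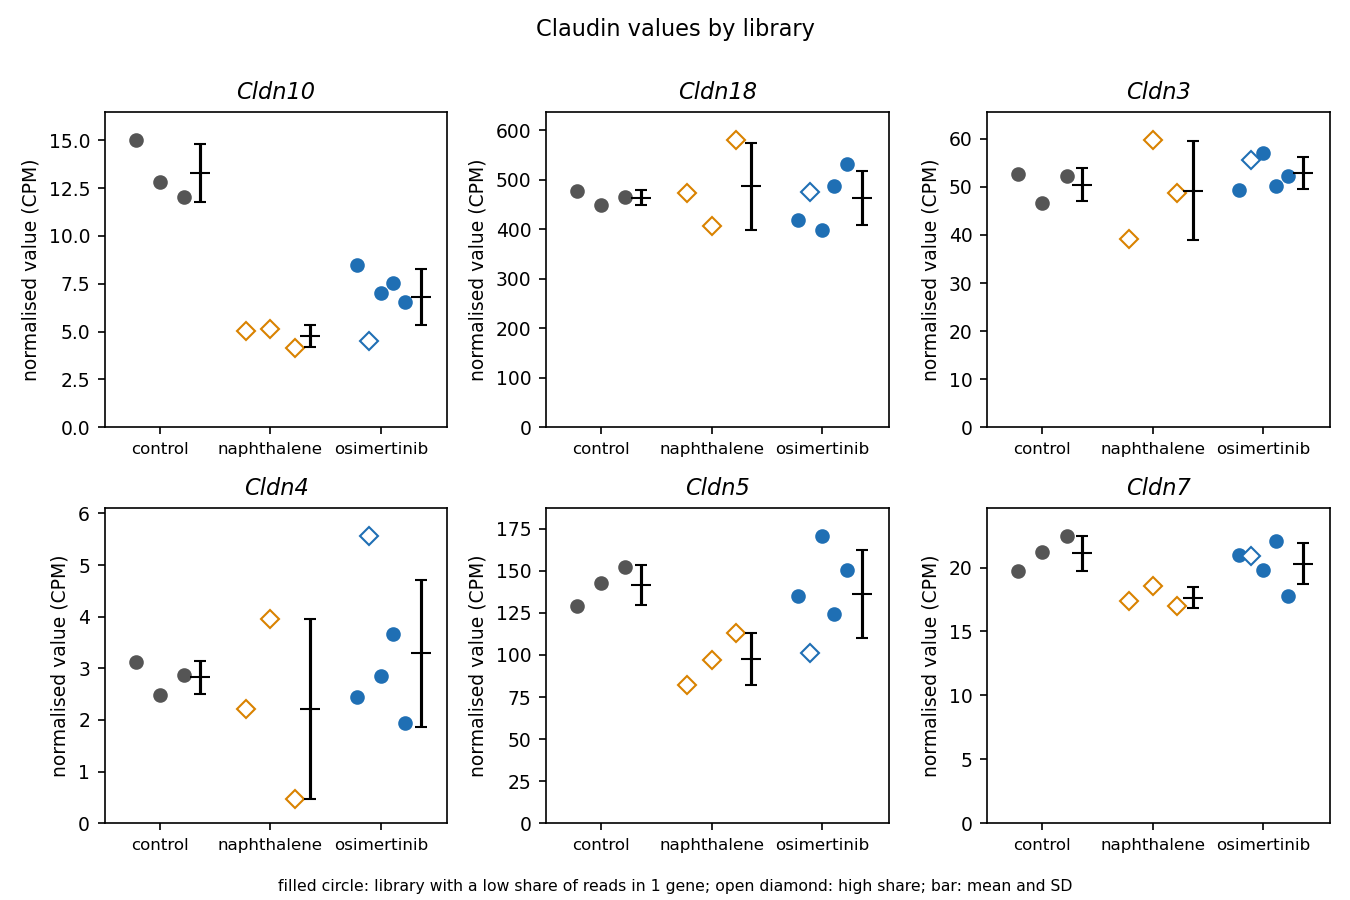
Normalised value (CPM, linear axes from 0) of each of the 6 claudins in each of the 11 libraries, with group mean and SD bars. Open diamonds are the 4 libraries in which 1 gene took 43.9% or more of the reads. The 3 control points of Cldn10 lie at 12.03 CPM or above and no treated library is above 8.47, for naphthalene by choice of the list.

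Differences were taken on the log2(CPM + 1) scale, fitted with limma over the 16225 genes that averaged 1 CPM or more. For *Cldn10* the naphthalene-minus-control difference was -1.31 (SE 0.20). Of all genes tested, 21 had a lower difference. Osimertinib minus control was -0.89 (SE 0.18, 95% interval -1.28 to -0.49) and did not pass after Benjamini-Hochberg adjustment in limma (adjusted p = 0.313). Among the 16225 genes, 84 had a lower difference in that comparison, whose tests are not independent of the choice of the list. DESeq2 on the recovered reads called it (adjusted p = 0.00109), as did limma with array weights (adjusted p = 0.0187), whereas edgeR did not (adjusted p = 0.177). Over all 27 alternative settings its adjusted p ran from 0.00109 to 1.00, and its difference from -1.24 to -0.64.

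The osimertinib-minus-naphthalene difference of *Cldn10* was 0.42 (SE 0.18), and the groups overlapped. Its direction rested on the low-share osimertinib libraries: osimertinib 2, at 4.50 CPM, differed from the naphthalene mean by -0.07. The counting error in the high-share libraries was wide, with 95% Poisson intervals of 2.89 to 8.20, 2.74 to 8.79 and 1.89 to 7.84 CPM for the naphthalene libraries. These intervals cover counting error only.

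Within the 7 low-share libraries, osimertinib 1, 3, 4 and 5 had 7.39 ± 0.827 CPM of *Cldn10* (SD, n = 4) against 13.3 ± 1.54 in control (SD, n = 3). That difference was -0.77 on the log2 scale, and the groups did not overlap. The two-sided exact permutation test gave p = 0.0571, the smallest this design of 35 regroupings allows, and 0.343 after Benjamini-Hochberg adjustment over the 6 claudins. In the same libraries 4.38% of the 16225 genes were lower without overlap. The control values are those against which *Cldn10* was seen as low, so its result is not independent of the choice of the list.

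Club cell markers were also at lower values in the treated libraries. The 19 club cell genes, led by *Scgb1a1*, the secretoglobin that club cells release in bulk, summed to 15286 to 18608 CPM in control, 8009 to 12607 in naphthalene and 5287 to 12062 in osimertinib. Against control, 14 of 19 had differences below 0 after naphthalene (median -0.37), where 62.0% of all genes did. After osimertinib 18 of 19 were below 0 (median -0.56), against 52.0% of all genes. None was called by limma in either comparison.

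Set against the club cell sum of its own library, a ratio that does not depend on scaling between libraries, *Cldn10* showed another order. Control libraries had 0.806, 0.824 and 0.787 CPM of *Cldn10* per 1000 CPM of club cell markers. Naphthalene libraries had 0.631, 0.410 and 0.328. Osimertinib libraries had 0.702, 0.851, 0.955, 0.760 and 0.753. The osimertinib values lay on both sides of the control values, and every naphthalene value was below both other groups. The osimertinib ratio was 1.82-fold the naphthalene ratio (log2 difference 0.86), a description since low *Cldn10* in these naphthalene libraries chose the list. The reference moved as well: 16 of the 19 club cell markers were below 0 in osimertinib minus naphthalene (median -0.43), against 39.5% of all genes. Limma called none of them. For the *Cldn10* ratio, osimertinib minus control was -0.01 (two-sided exact permutation p = 0.893, 56 regroupings). That test uses the control values against which *Cldn10* was seen as low, so it is not independent of the choice of the list. A large p here does not show that the groups are equal. With *Scgb1a1* alone as the reference the differences were 1.08 and 0.42, so the closeness to control depended on the reference chosen. All 3 naphthalene libraries are high-share, and so is osimertinib 2, which had 0.851. That library had 4.50 CPM of *Cldn10* and a club cell sum of 5287 CPM, the lowest of the 11 libraries.

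**Figure D2:**
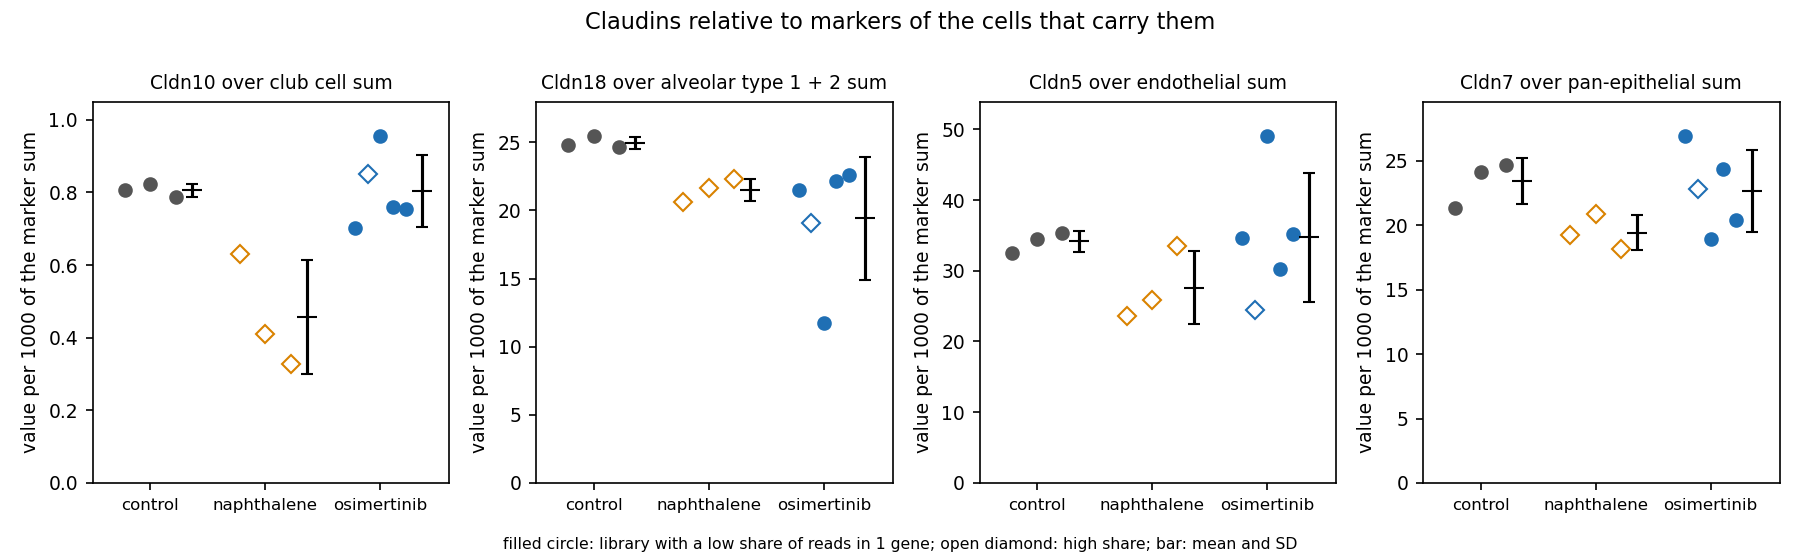
Value of 4 claudins per 1000 CPM of the summed markers of a cell type in the same library (linear axes from 0), with group mean and SD bars; open diamonds are the high-share libraries. For Cldn10 the naphthalene libraries reach at most 0.631 and the osimertinib libraries start at 0.702; for Cldn18 osimertinib 3 is the lowest point, at 11.7.

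*Cldn5* (ENSMUSG00000041378, chromosome 16) is the main claudin of blood vessel endothelium and restricts the passage of small solutes. It has a single annotated coding transcript. Its 250 bases before the start (chr16:18776597-18776846, plus strand, RefSeq GRCm38.p6) are shown beside those of *Cldn10* because both genes were lowest in the same 4 libraries. Capitals mark the same motifs, here the CCAAT box at 118 and 88 bases before the start and the GC box at 45 bases before it, all on the opposite strand.

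Cldn5: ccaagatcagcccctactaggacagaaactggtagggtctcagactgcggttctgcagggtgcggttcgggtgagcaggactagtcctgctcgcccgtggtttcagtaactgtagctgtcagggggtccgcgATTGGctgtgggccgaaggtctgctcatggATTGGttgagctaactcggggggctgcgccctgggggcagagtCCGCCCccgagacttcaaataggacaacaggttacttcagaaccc

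The GC content of this window is 59.6%, with 12 CpG sites. It shares a CCAAT box at 118 bases before the start with the upstream *Cldn10* window.

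*Cldn5* was at 129, 143 and 152 CPM in control, 82.4, 97.3 and 113 in naphthalene, and 135, 101, 171, 124 and 151 in osimertinib. Every naphthalene library lay below every control library, and osimertinib 2 was again within the naphthalene range. Means were 141 ± 11.8 (SD, n = 3), 97.7 ± 15.5 (SD, n = 3) and 136 ± 26.2 CPM (SD, n = 5). Naphthalene minus control was -0.54 (SE 0.17, 95% interval -0.92 to -0.16; limma adjusted p = 0.540). Osimertinib minus naphthalene was 0.47 (SE 0.16, 95% interval 0.13 to 0.81; limma adjusted p = 0.329), with overlap. Osimertinib and control differed by -0.07 (95% interval -0.41 to 0.27).

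Split by read share, *Cldn5* did not overlap between the 4 high-share libraries (82.4 to 113 CPM) and the 7 low-share ones (124 to 171 CPM). *Cldn10* did not overlap either, with 4.13 to 5.14 against 6.53 to 15.0 CPM. For *Cldn10* this is largely by choice of the list, since all naphthalene libraries are high-share and all control libraries low-share. Of all 16225 genes, 2.01% were lower without overlap in the high-share libraries. With the read share as a term in the limma fit, *Cldn5* was at -0.034 in naphthalene minus control and 0.065 in osimertinib minus naphthalene, against -0.54 and 0.47 without the term. *Cldn10* was at -0.70 and -0.07, against -1.31 and 0.42. In that fit the term rests on osimertinib 2 alone. Endothelial markers lay in the same direction: 12 of 14 were below 0 in naphthalene minus control (median -0.24), against 62.0% of all genes. In osimertinib minus naphthalene 13 of 14 were above 0, against 60.5% of all genes, and limma called none in either. Per 1000 CPM of the endothelial sum, *Cldn5* averaged 34.2 in control, 27.6 in naphthalene and 34.7 in osimertinib. All 3 groups overlapped one another, with naphthalene 3 at 33.5 and control 1 at 32.5.

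*Cldn18* (ENSMUSG00000032473, chromosome 9) seals the alveolar epithelium and had the highest value of the 6 genes per kilobase of its longest coding transcript. Control libraries had 478, 448 and 465 CPM. Naphthalene libraries had 474, 406 and 580 CPM, and osimertinib libraries 419, 475, 399, 488 and 532. All 3 groups overlapped, and both treated groups spread more widely than control. Means were 464 ± 14.7 (SD, n = 3), 486 ± 87.6 (SD, n = 3) and 463 ± 53.7 CPM (SD, n = 5). The 95% interval of naphthalene minus control was -0.27 to 0.38, and that of osimertinib minus control -0.30 to 0.28, so the data do not separate no change from a change of that size. The sign of these small differences also flipped under scalings that left the median of all genes near 0. *Cldn18* itself was at -0.0084 in naphthalene minus control with quantile normalisation. It was at 0.0083 in osimertinib minus control with median-ratio scaling.

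Relative to the summed alveolar type 1 and type 2 markers, *Cldn18* was at 24.96 ± 0.429 per 1000 CPM in control (SD, n = 3), 21.5 ± 0.819 in naphthalene (SD, n = 3) and 19.4 ± 4.51 in osimertinib (SD, n = 5). Every naphthalene library (20.6 to 22.3) and every osimertinib library (11.7 to 22.6) was below every control library (24.6 or more). Osimertinib minus control was -0.40 on the log2 scale, and -0.23 without osimertinib 3. With all libraries the exact permutation p was 0.0357, the smallest possible. Adjusted over the 12 ratio tests it was 0.214, so it did not pass. Those 12 include the *Cldn10* ratio in osimertinib minus naphthalene, which is not read as a test here. Its inclusion makes this adjusted value smaller than it would be without it. The reference moved: alveolar type 2 markers, led by *Sftpc*, the surfactant protein C gene, summed to 12778 to 14402 CPM in control, 14054 to 20493 in naphthalene and 15265 to 29694 in osimertinib, with the maximum in osimertinib 3. With *Ager*, the receptor that marks alveolar type 1 cells, as the only reference, the osimertinib-minus-control difference was 0.18.

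*Cldn7* (ENSMUSG00000018569, chromosome 11), a claudin of many epithelia, had 19.7, 21.2 and 22.5 CPM in control. It had 17.4, 18.6 and 17.0 in naphthalene and 21.0, 20.9, 19.8, 22.1 and 17.8 in osimertinib. Naphthalene lay below control without overlap, and osimertinib overlapped both; osimertinib 2 was not low here. Naphthalene minus control was -0.25 (95% interval -0.49 to 0.00; limma adjusted p = 0.671). Osimertinib minus naphthalene was 0.19 (95% interval -0.03 to 0.41).

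*Cldn3* (ENSMUSG00000070473) and *Cldn4* (ENSMUSG00000047501), both on chromosome 5, tighten epithelial junctions. *Cldn3* had 52.6, 46.6 and 52.3 CPM in control, 39.2, 59.7 and 48.6 in naphthalene, and 49.3, 55.6, 57.02, 50.3 and 52.3 in osimertinib. The groups overlapped, and the 95% interval of osimertinib minus control was -0.20 to 0.33. The antisense gene *Wbscr25* overlaps *Cldn3*, and the sources used here do not say whether counting used strand. *Wbscr25* averaged 0.128 CPM over the 11 libraries.

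*Cldn4* had 3.13, 2.49 and 2.87 CPM in control, 2.21, 3.96 and 0.459 in naphthalene, and 2.44, 5.56, 2.85, 3.66 and 1.93 in osimertinib. The naphthalene values came from 7, 10 and 1 reads, and they ranged both below and above control. The 95% interval of naphthalene minus control, -1.29 to 0.45, was the widest of the 6 and included 0.

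**Figure D3:**
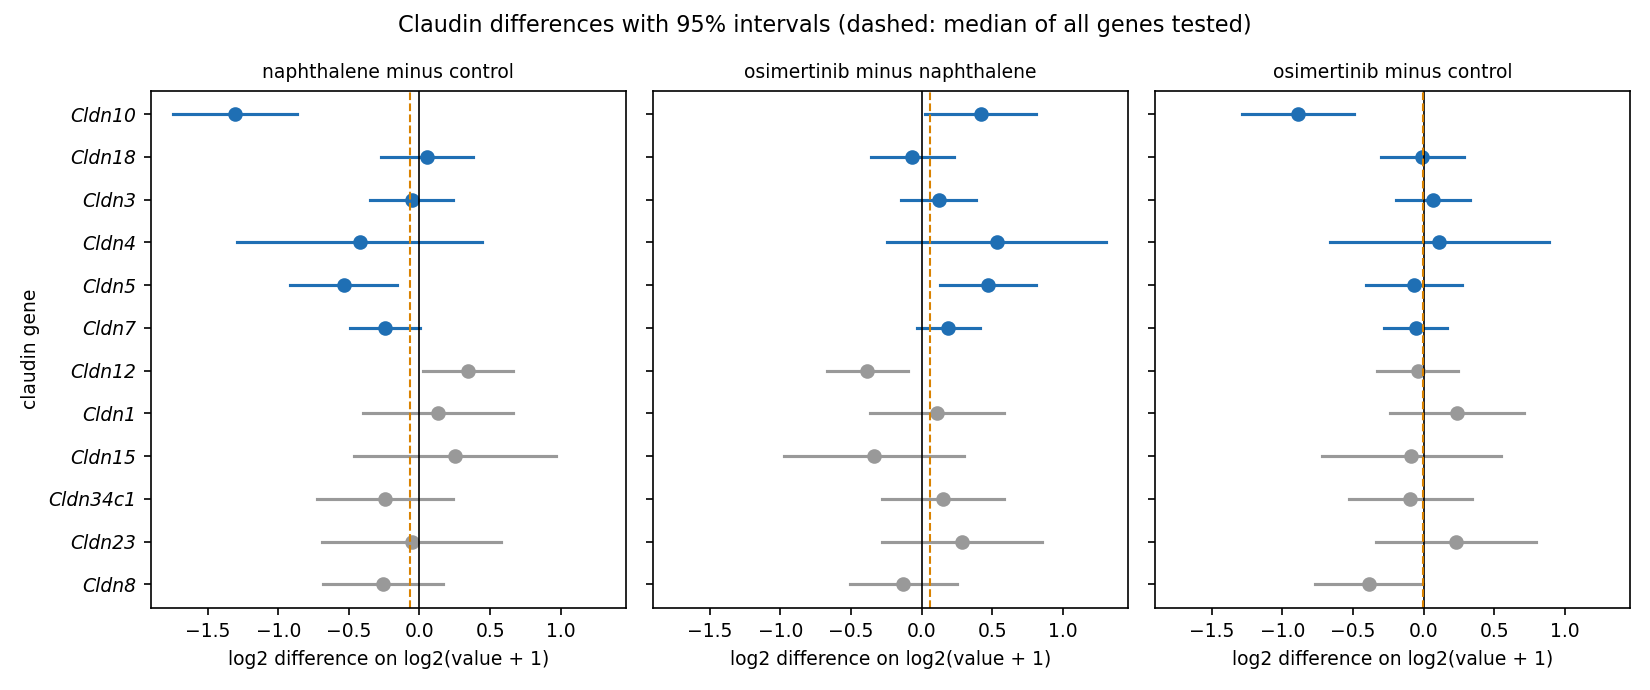
Fitted log2 difference of each tested claudin with its 95% interval in the 3 comparisons; blue are the 6 listed claudins, grey the 6 other claudins that passed the same filter, and the dashed line is the median of all 16225 genes. Cldn10 lies farthest below 0 in both comparisons with control (-1.31 and -0.89), and most other intervals include 0.

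All 6 genes passed the filter on low values. At an adjusted p of 0.05 limma called 0 of them in naphthalene minus control, where the share of all genes called was 0%, and 0 in osimertinib minus naphthalene, also with a share of 0%. It called 0 in osimertinib minus control, where 0.00616% of genes were called. At an unadjusted p under 0.05 in limma, *Cldn5* passed in naphthalene minus control, where 7.46% of all genes did, and in osimertinib minus naphthalene, where 10.3% did. *Cldn10* is not read in those comparisons, and it alone of the 6 passed in osimertinib minus control, where 4.8% of all genes did. That comparison uses the control values its low naphthalene values were set against, so it is not independent of the choice of the list. Groups did not overlap for 3 of the 6 in naphthalene minus control (*Cldn5*, *Cldn7* and, by choice of the list, *Cldn10*, all lower), where 11.2% of all genes were lower without overlap. No claudin of the 6 was free of overlap in osimertinib minus naphthalene (5.94% of all genes), and 1, *Cldn10*, was lower in osimertinib minus control (3.43% of all genes lower). The median difference of the 6 was -0.33, 0.30 and -0.03 in the 3 comparisons in that order, against -0.06, 0.06 and -0.01 over all genes. All 3 medians include *Cldn10*, whose low naphthalene values against control chose the list, so they do not describe claudins at large. The comparisons share libraries, so they are not independent.

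The table held 10 other claudins, of which 6 passed the filter: *Cldn1*, *Cldn8*, *Cldn12*, *Cldn15*, *Cldn23* and *Cldn34c1*. None was called by limma, and their median differences were 0.04, -0.01 and -0.06. *Cldn12*, a widely expressed claudin, was higher after naphthalene, at 23.1 ± 1.92 CPM (SD, n = 3) against 18.0 ± 1.35 in control (SD, n = 3) without overlap (4.94% of all genes were higher without overlap), and 17.6 ± 2.60 in osimertinib (SD, n = 5). Its log2 differences were 0.34 for naphthalene minus control (limma adjusted p = 0.639) and -0.38 for osimertinib minus naphthalene (limma adjusted p = 0.335), again without overlap, as in 2.12% of all genes for lower values. *Cldn8* was at 1.85 ± 0.377 CPM in osimertinib (SD, n = 5) against 2.72 ± 0.386 in control (SD, n = 3). These groups did not overlap either (log2 difference -0.39, limma adjusted p = 0.999), as in 3.43% of all genes for lower values. The osimertinib values of *Cldn8* came from 7 to 32 reads per library. *Cldn2*, *Cldn6*, *Cldn11* and *Cldn20* had means under 1 CPM.

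Levels can be compared between claudins only per length. Divided by the longest coding transcript, the mean over the 11 libraries was 113 ± 12.8 CPM per kilobase for *Cldn18* and 89.8 ± 18.9 for *Cldn5* (SD, n = 11). It was 40.7 ± 4.41 for *Cldn3*, 14.8 ± 1.43 for *Cldn7*, 3.77 ± 1.73 for *Cldn10* and 1.58 ± 0.708 for *Cldn4* (SD, n = 11). Over all libraries the ranges met between *Cldn18* and *Cldn5* and between *Cldn10* and *Cldn4*, and the ranges of the other neighbours were separate. By group the picture was finer. *Cldn10* (5.65 to 7.05) was separate from *Cldn4* (1.37 to 1.72) in control, but their ranges met in both treated groups. *Cldn18* (97.3 to 139) was separate from *Cldn5* (58.2 to 80.1) in naphthalene, and their ranges met in control and osimertinib. With the shortest coding transcript *Cldn7* came to 53.1 and passed *Cldn3*, whose single transcript kept it at 40.7. By that length *Cldn18* (464 to 674) was separate from *Cldn5* (58.2 to 120) over all libraries. *Cldn10* (4.01 to 14.5) was then separate from *Cldn4* (0.253 to 3.06) too. Shares of the summed claudin value were taken per kilobase of the longest coding transcript. *Cldn18* made up 38.3% in control, 45.0% in naphthalene and 39.0% in osimertinib, and *Cldn5* 34.4, 26.6 and 33.7%. *Cldn10* made up 2.16 ± 0.283% (SD, n = 3), 0.882 ± 0.187% (SD, n = 3) and 1.13 ± 0.255% (SD, n = 5). The shares depend on the length used. By the shortest, *Cldn18* made up 65.1, 68.7 and 65.7% and *Cldn5* 12.1, 8.41 and 11.8%.

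**Figure D4:**
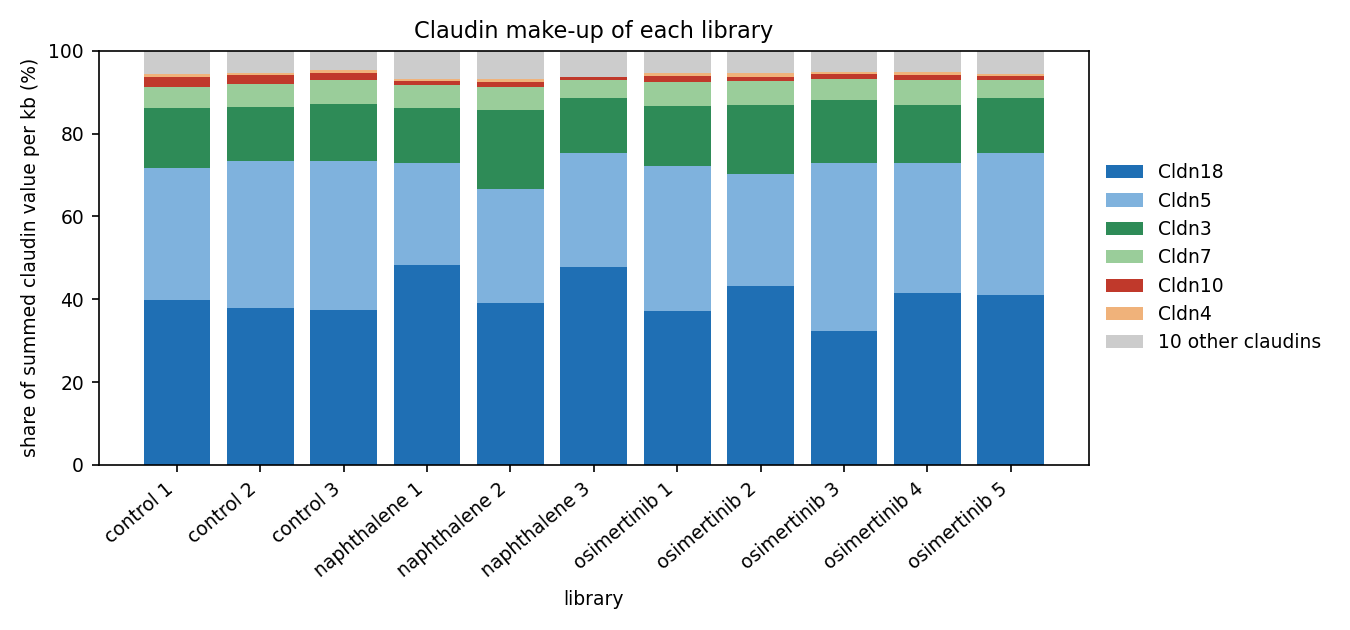
Share of each claudin in the summed claudin value per kilobase (percent, longest coding transcript) in each library; grey is the sum of the 10 other claudins. Cldn18 and Cldn5 fill most of every bar, and the Cldn5 share is lower in the 3 naphthalene libraries and osimertinib 2 (24.7 to 27.6%) than in the other 7 (31.2 to 40.7%).

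Claudins work with other junction proteins, and none of those listed was called. Limma called 0, 0 and 1 of all 16225 genes in the 3 comparisons, so an absence of calls says little about these genes. Of 23 tight junction partners, among them *Tjp1*, the scaffold that ties claudins to actin, and *Ocln*, which encodes occludin, limma called 0 in each comparison, and the medians were -0.07, 0.01 and -0.01. *Tjp1* was at 380 ± 8.19 CPM in control (SD, n = 3), 368 ± 20.2 in naphthalene (SD, n = 3) and 381 ± 32.7 in osimertinib (SD, n = 5). The smallest unadjusted p in naphthalene minus control belonged to *Mpdz* and *Esam*. In osimertinib minus naphthalene it belonged to *Prkci*, the polarity kinase (log2 difference -0.28, limma adjusted p = 0.387), and *Pard3*, and in osimertinib minus control to *Pard6b* (-0.31, limma adjusted p = 0.963) and *Cgn*. Of 18 genes of adherens junctions, desmosomes and gap junctions, limma called 0 as well, with medians of -0.03, 0.01 and -0.04. Those with the smallest unadjusted p were *Gja1* and *Nectin2* in naphthalene minus control, *Nectin2* and *Gja5* in osimertinib minus naphthalene, and *Gja1* and *Ctnnb1* in osimertinib minus control. *Nectin2*, an adhesion molecule of adherens junctions, had 38.2 ± 1.23 CPM in control (SD, n = 3), 33.4 ± 2.59 in naphthalene (SD, n = 3) and 39.5 ± 2.39 in osimertinib (SD, n = 5).

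Genes whose log2(CPM + 1) followed a claudin most closely over the 11 libraries were ranked by Pearson's r among 11690 genes averaging 5 CPM or more, the claudins described here left out but not the others. The libraries share treatment groups and the split in read share, so these values describe a likeness of pattern. For *Cldn10* they were *Impdh1* (0.96), *Ptp4a3* (0.94) and *Jrk* (0.94). For *Cldn5* they were *Map3k3* (0.97), *Slc9a3r2* (0.96) and *Idnk* (0.96), and for *Cldn18* *Suco* (0.95), *Csgalnact2* (0.93) and *Reps2* (0.91). *Cldn4* was followed by *Trim37* (0.93), *Rsph4a* (0.93) and *Kif19a* (0.92), *Cldn3* by *Adss* (0.91), *D3Ertd254e* (0.90) and *Stx2* (0.88), and *Cldn7* by *Tfcp2* (0.87), *Unc45a* (0.86) and *Fam47e* (0.84). *Cldn4* thus lay beside *Rsph4a*, a radial spoke gene of cilia, though its value in naphthalene 3 is a single read. None of the 3 genes nearest *Cldn10* is in the club cell list. Only 3 were kept, so this does not say how closely club cell genes followed it. Between the claudins themselves r was 0.58 for *Cldn10* with *Cldn5* and 0.59 for *Cldn10* with *Cldn7*.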

How the data were processed

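Total RNA from 11 lung samples was sequenced with a directional library kit after depletion of ribosomal RNA, per the labels' protocols. The authors deposited 1 table of normalised signal in CPM, which equalled edgeR's TMM-scaled CPM of the recovered reads. Per the submitters' processing notes the build was GRCm39 and the tools included edgeR, Bowtie2, RSEM 1.3.0 and Trimmomatic 0.38, with no settings given. Whole reads were recovered from the deposited signal: 100% of values were whole multiples of 1 read within 0.01. GENCODE M21 (GRCm38) named 23123 of 23255 gene IDs and gave transcript lengths, and promoter sequences came from RefSeq. Of the table's genes, 55 had values identical to another gene's, none of them a claudin described here. The closest 2 libraries of any group had a chi-square of 3.67 per degree of freedom, so no library was treated as a duplicate.

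The test was limma's moderated one (limma 3.58.1, R 4.3.3, trend on) on log2(value + 1) for genes with a mean of 1 or more. All 3 groups entered 1 model, which left 8 residual degrees of freedom. P-values were adjusted by Benjamini and Hochberg over 16225 genes, with a threshold of 0.05. The log2(value + 1) scale understates the change of low genes. Ratios to marker sums were tested with two-sided exact permutation tests (scipy 1.17.1). edgeR 4.0.16 and DESeq2 1.42.0 were run on the recovered reads. The script was tested on simulated data.

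The members and gene lists were chosen with earlier results of these data known. Named genes were the 6 claudins, the other claudins past the filter, the 3 genes most like each claudin, the highest gene of a marker list used, and of the junction lists the 2 with the smallest unadjusted p in each comparison. *Ocln*, *Tjp1* and *Cyp2f2* were added as textbook genes. Some listed markers were not analysed here.

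Alternatives were other pseudocounts, filters, scalings, fits, references and left-out libraries. Same-numbered libraries were checked for pairing by correlating their deviations from group means. Between osimertinib and naphthalene these were 0.122, 0.159 and 0.523. Each was above 0.1, the level set for pairing, but osimertinib 4 correlated more with naphthalene 1 and 2 (0.229 and 0.270) than their same-numbered libraries did, and the labels are silent on what a number shares. All tests given are unpaired, and the fit with the replicate number as a block is an alternative.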

Additional observations from a re-analysis of the deposited data

Results flagged for a closer look

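In osimertinib 3 the log2 ratio of *Cldn18* to the summed alveolar type 1 and type 2 markers was -6.42, while the other 4 osimertinib libraries lay between -5.71 and -5.47. Its gap to the nearest of the others was 0.745 of the group's range, above Dixon's 95% critical value of 0.710 for 5 samples. Among 12 groups checked for such a sample, chance marks about 1 in 20. *Cldn18* itself was at 399 CPM in that library, the lowest of the 5, while its alveolar type 2 sum was the highest of the 11 libraries, at 29694 CPM.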

How the results depend on the processing

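The number of the 6 claudins called was 0 in each comparison, and other settings moved it as follows. Calls of *Cldn10* in comparisons with naphthalene are counted here but are no evidence, since its low naphthalene values chose the list. In naphthalene minus control it was 6 with equal totals, 2 with equal totals without dominant genes (*Cldn10* and *Cldn5*), and 1 (*Cldn10*) with only the 2 groups compared, with DESeq2, or with naphthalene 3 and osimertinib 3 left out together. Leaving out 1 library gave 0 to 1, with the 1 call without osimertinib 2. In osimertinib minus naphthalene it was 6 with equal totals and 1 (*Cldn5*) with equal totals without dominant genes. In osimertinib minus control it was 1 (*Cldn10*) with array weights and with DESeq2, a call not independent of the choice of the list. Leaving out any 1 library gave 0 in the comparisons with osimertinib. No setting took any of the 12 ratio tests past the threshold (0 throughout). This says little, since the smallest exact permutation p with 5 against 3 libraries is 0.0357. A single ratio at that p could not pass after adjustment over 12. With 4 osimertinib against 3 control libraries the smallest p is 0.0571, already above the threshold. The settings confined to libraries of low or of high read share, or without naphthalene 3 and osimertinib 3, were added after seeing the data.

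Equal totals count the dominant gene in the total and moved the median of all genes to -1.46, 1.11 and -0.34 in naphthalene minus control, osimertinib minus naphthalene and osimertinib minus control, and equal totals without dominant genes moved it to -0.46, 0.34 and -0.12. Over all genes, calls in that order were 0, 0 and 1 with limma, 15509, 14282 and 88 with equal totals, and 533, 418 and 0 without dominant genes. They were 5, 4 and 149 with array weights, 21, 1 and 1 with only the 2 groups compared, 12, 33 and 78 with DESeq2, 0, 0 and 1 with edgeR, 2, 2 and 2 with the read share as a term, 0, 1 and 1 with quantile normalisation, and 202, 189 and 3 without naphthalene 3 and osimertinib 3. Without osimertinib 2 they were 12, 11 and 2, and without osimertinib 3 0, 4 and 2.

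Small differences changed sign. With either kind of equal totals all genes moved together, so a changed sign there says nothing of the gene; for the other settings the cause was not tested. *Cldn18* in naphthalene minus control was -1.50 with equal totals, -0.37 without dominant genes, -0.0084 with quantile normalisation, -0.0046 with the read share as a term and -0.080 without naphthalene 3 and osimertinib 3 (-0.080 to 0.18 without 1 library). In osimertinib minus naphthalene it was 1.12 with equal totals, 0.23 without dominant genes, 0.021 with array weights and 0.12 without those libraries (-0.19 to 0.070). In osimertinib minus control it was 0.0083 with median-ratio scaling and with edgeR, 0.034 with array weights, 0.013 with DESeq2 and 0.041 without those libraries (-0.062 to 0.041). *Cldn3* in naphthalene minus control was 0.00052 with median-ratio scaling, 0.014 with edgeR and 0.016 with DESeq2 (-0.20 to 0.095 without 1 library, and -0.029 to 0.27 in osimertinib minus naphthalene). In osimertinib minus control it was -0.30 with equal totals and -0.056 without dominant genes. *Cldn4* was 0.062 in naphthalene minus control without naphthalene 3 and osimertinib 3 (-0.82 to 0.062 without 1 library). In osimertinib minus control it was -0.19 with equal totals and -0.058 with the read share as a term or in low-share libraries only (-0.058 to 0.23), and *Cldn5* was 0.031 in both of the latter (-0.16 to 0.031). *Cldn10* in osimertinib minus naphthalene was -0.066 with the read share as a term and with high-share libraries only, both resting on osimertinib 2. With the same term its naphthalene-minus-control difference was -0.70 and those of *Cldn5* were -0.034, and 0.065 in osimertinib minus naphthalene.

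Among the log2 ratios to marker sums, the first gene of the list as the reference gave -0.030 and -0.038 for *Cldn3* (osimertinib minus naphthalene and minus control), 0.42 for *Cldn10* and 0.18 for *Cldn18* (both minus control). *Cldn10* minus control was 0.00052 with a pseudocount of 0.1, and low-share libraries only gave 0.10 for *Cldn5* and -0.077 for *Cldn4*. Without 1 library the ratios in osimertinib minus control ranged from -0.074 to 0.036 for *Cldn10*, -0.47 to -0.23 for *Cldn18*, -0.15 to 0.10 for *Cldn5*, -0.077 to 0.29 for *Cldn4* and -0.12 to 0.0080 for *Cldn7*, and that of *Cldn3* minus naphthalene from -0.0095 to 0.31.

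With the replicate number as a replicate block, *Cldn10* was -1.31, 0.38 and -0.93 in naphthalene minus control, osimertinib minus naphthalene and osimertinib minus control, 0 claudins were called in each, and no call on a claudin changed.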
